A study of Mus musculus with 2 samples.

Results

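The 9 genes described here, Pparg, Spi1, Cebpa, Cebpb, Bhlhe40, Bhlhe41, Ikzf1, Irf8 and Runx1, encode DNA-binding transcription factors that act in alveolar macrophages or in the myeloid lineage that gives rise to them. They were chosen by name, and each row whose platform annotation gave exactly 1 symbol and that symbol was taken. All 9 were found, in 10 of the 41345 rows on the array, among 22180 genes named in the same way. Irf8 had 2 rows and each of the others had 1.

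Both groups were alveolar macrophages of adult C57BL6 littermates, sorted from collagenase-digested lung as living cells that carry Siglec-F and CD11c. The control, labelled wild type, carried floxed PIKfyve alleles (f_f). The knockout, labelled PIKfyve KO, carried the same alleles with lysm_cre (f_f_lysm_cre), a Cre driven by the lysozyme promoter, which is active in macrophages, monocytes and neutrophils. Since the control had no Cre, loss of the kinase and presence of Cre cannot be told apart, and the labels do not state how many mice stand behind an array. Each genotype had 1 array, so no value has a replicate error and no difference was tested. Values are RMA log2 signals, in which a step of 1 is a doubling, and differences are the knockout-labelled array minus the wild-type-labelled array.

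Alveolar macrophages acquire their identity after birth, when the cytokine GM-CSF from the alveolar epithelium induces Pparg, a lipid-sensing nuclear receptor, in fetal monocytes. The ETS factor PU.1, encoded by Spi1, opens macrophage enhancers and works with partners that include C/EBP, IRF and RUNX proteins. Bhlhe40 and Bhlhe41 are related repressors that bind E-box DNA and sustain alveolar macrophage self-renewal. Ikzf1 encodes Ikaros, a zinc finger protein of lymphoid and myeloid cells that recruits the NuRD corepressor complex.

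The targeted gene did not check the labels, because Pikfyve read 5.68 in the wild-type-labelled array and 5.95 in the knockout-labelled array, and the position of its probes relative to the deleted part is not given. The arrays had medians of 5.17 and 5.10. Background was set at the 95th percentile of 1428 olfactory, vomeronasal and taste receptor genes, which was 5.37 and 5.31. A gene was analysed if its 2-array mean was at least 5.13, the median over rows, and 12516 genes were. The sorting markers were present, with Siglecf at 9.27 and 8.54 and Itgax, which encodes CD11c, at 10.03 and 10.39. All 16 alveolar macrophage markers measured, of which Pparg is itself 1 of the 9 factors, lay above background on both arrays. Of these 16, 6 read lower and 10 higher in the knockout-labelled array, with a median difference of 0.11. Krt79 (-0.98), Siglecf (-0.73) and Lpl (-0.72) were at least 1.5-fold lower, and Fabp5 (0.72) and Fabp4 (0.62) at least 1.5-fold higher. Scatter is described by a local spread, a median absolute deviation scaled to a standard deviation over analysed genes of like level, which ran from 0.20 to 0.33. The arrays hold bulk RNA, so fewer cells of a type and less RNA per cell cannot be told apart.

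Start regions are shown for the 4 factors with the most negative differences, Ikzf1, Irf8, Runx1 and Cebpa. These genes were chosen by their differences, and 1 array per genotype cannot show that they change together. Of their 7 windows 5 are printed; the second starts of Irf8, which holds an Ikaros motif 242 bases before it, and of Runx1 are not. The set of start windows used (build GRCm38.p6) held 7 of the 9 genes, in 12 windows that run from 250 bases before to 50 after an annotated start. Spi1 and Bhlhe40 had no window in that set. Windows were searched on both strands for GGAAGT (ETS, PU.1), GAAANNGAA (IRF), TGTGGT (RUNX), TTGCNNAA (C/EBP), CACGTG (E-box), AGGTCA (nuclear receptor half-site), TGGGAA (Ikaros) and TTCNNNGAA (STAT). The ETS and Ikaros motifs share GGAA and can overlap. Capitals mark every match in the windows below, in which no matches overlap. A match describes letters in a window and is not evidence of binding.
Ikzf1, start 1, chr11:11685675-11685974 (+ strand): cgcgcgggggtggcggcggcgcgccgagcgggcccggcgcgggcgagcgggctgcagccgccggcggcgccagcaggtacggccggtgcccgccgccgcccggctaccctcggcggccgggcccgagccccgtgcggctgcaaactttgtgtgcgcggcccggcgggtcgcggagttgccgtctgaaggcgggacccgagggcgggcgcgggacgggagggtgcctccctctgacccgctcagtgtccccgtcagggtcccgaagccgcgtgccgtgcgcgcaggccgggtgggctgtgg
Ikzf1, start 2, chr11:11689927-11690226 (+ strand): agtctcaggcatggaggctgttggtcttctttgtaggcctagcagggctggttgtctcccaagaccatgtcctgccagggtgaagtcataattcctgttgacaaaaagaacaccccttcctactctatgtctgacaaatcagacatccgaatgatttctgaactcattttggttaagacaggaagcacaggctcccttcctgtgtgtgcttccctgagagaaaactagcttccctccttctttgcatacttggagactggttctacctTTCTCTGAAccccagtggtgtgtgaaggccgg
Irf8, start 1, chr8:120736108-120736407 (+ strand): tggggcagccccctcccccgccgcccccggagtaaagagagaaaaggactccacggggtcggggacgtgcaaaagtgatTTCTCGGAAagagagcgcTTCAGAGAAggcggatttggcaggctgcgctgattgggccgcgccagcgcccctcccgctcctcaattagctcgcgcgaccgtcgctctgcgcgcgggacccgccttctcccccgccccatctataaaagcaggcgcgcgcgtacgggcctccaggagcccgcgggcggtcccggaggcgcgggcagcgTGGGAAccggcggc
Runx1, start 1, chr16:92826025-92826324 (- strand): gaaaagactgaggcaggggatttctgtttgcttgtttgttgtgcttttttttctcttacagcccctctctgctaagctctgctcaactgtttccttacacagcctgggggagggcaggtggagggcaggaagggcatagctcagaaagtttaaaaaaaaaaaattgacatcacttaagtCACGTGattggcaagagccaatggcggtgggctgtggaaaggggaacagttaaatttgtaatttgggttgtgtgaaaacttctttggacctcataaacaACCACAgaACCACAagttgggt
Cebpa, start 1, chr7:35119043-35119342 (+ strand): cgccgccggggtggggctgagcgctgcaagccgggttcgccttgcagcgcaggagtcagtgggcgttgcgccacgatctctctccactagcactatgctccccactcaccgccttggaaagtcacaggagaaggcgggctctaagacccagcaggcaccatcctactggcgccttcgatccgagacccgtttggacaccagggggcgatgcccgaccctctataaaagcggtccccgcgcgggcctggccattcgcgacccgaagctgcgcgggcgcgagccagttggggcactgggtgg

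The first start of Irf8 held a pair of STAT motifs, TTCTCGGAA and TTCAGAGAA, which begin 171 and 153 bases before the start, and an Ikaros motif that begins at base 37 of the transcript. The second start of Ikzf1 held 1 STAT motif, TTCTCTGAA. Over all 32817 windows of this length in the set, 8.29% held a STAT motif and 25.6% an Ikaros motif. Of the 12 windows of these factors, 2 held a STAT motif and 3 an Ikaros motif.

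The first start of Runx1 held 2 RUNX motifs, read on the opposite strand as ACCACA, within the transcribed part, and an E-box 71 bases before the start. Another E-box lay 153 bases before the start of Bhlhe41, in a window not printed. RUNX motifs were in 16.8% and E-boxes in 7.15% of all windows. The C/EBP motif was in 1 of the 12 windows, the third start of Pparg, and in 10.8% of all windows. The nuclear receptor half-site was in 2 of the 12 windows, the first and the second start of Pparg, and in 16.3% of all windows. No window of these factors held the ETS or IRF letters, which were in 23.8% and 8.55% of all windows.

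Of the 9 factors, 7 read lower and 2 read higher in the knockout-labelled array, with a median difference of -0.20. Across the 12516 genes analysed, 49.6% read lower and the median was 0.00. Among the 5308 analysed genes whose mean lies within the range of these 9, 42.6% read lower and the median was 0.05. The differences ran from -1.25 for Ikzf1 to 0.15 for Pparg, and all 9 genes lay above background on both arrays. Ikzf1 was the 1 factor at least 1.5-fold lower, where 2.66% of the genes analysed were, and none was 1.5-fold higher, where 4.45% were. It was also the 1 factor at least 2-fold lower, against 0.336% of the genes analysed. Of the genes analysed, 0.927% were 2-fold higher and 1.26% were 2-fold apart in either direction. These counts rest on 1 array per genotype.

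**Figure D1:**
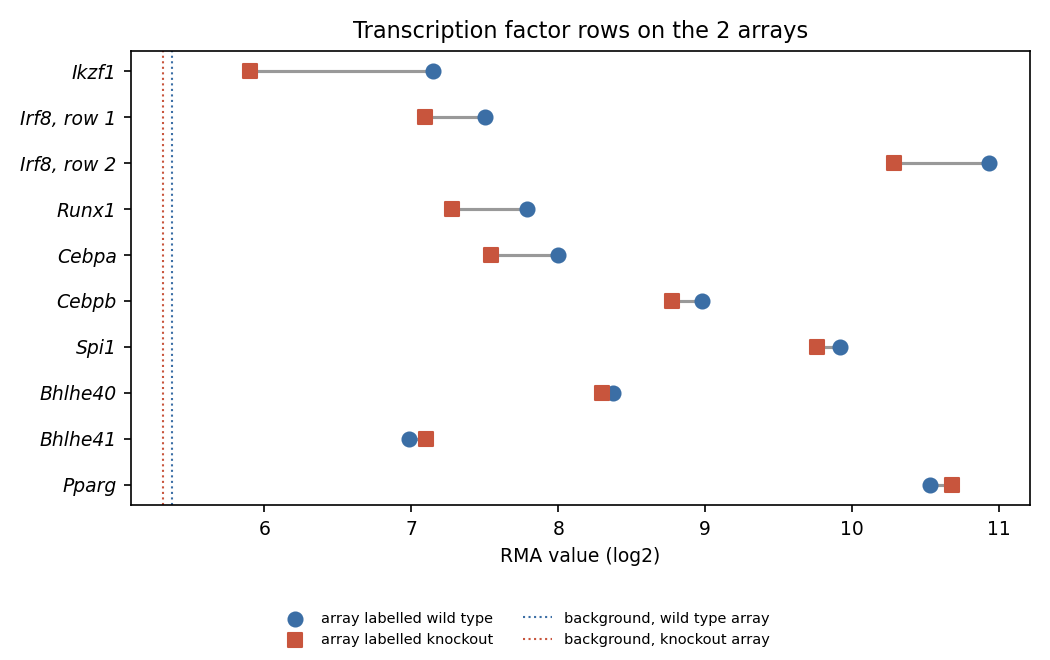
RMA values (log2, horizontal axis) of the 10 rows of the 9 factors, with a circle for the wild-type-labelled array, a square for the knockout-labelled array and dotted lines at each array's background. Ikzf1 spans 7.15 to 5.90, and both rows of Irf8 lie lower in the knockout-labelled array, while Bhlhe41 and Pparg lie slightly higher.

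Ikzf1, the gene of Ikaros, showed the largest difference of the group. It read 7.15 in the wild-type-labelled array and 5.90 in the knockout-labelled array, a difference of -1.25 or 2.37-fold lower. The difference was 4.71 times the local spread in size, and 16 of the 12516 genes analysed, Ikzf1 included, were as low or lower. The knockout value remained above the background of that array, 5.31. With an offset of 32 on the linear scale, which damps low signals, the difference was -0.92, below 2-fold in size.

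Irf8, which directs monocyte and dendritic cell development with PU.1 as its partner, read lower in both of its rows. The first row read 7.50 in the wild-type-labelled array and 7.10 in the knockout-labelled array, a difference of -0.41. The second row read 10.93 and 10.28, a difference of -0.65 or 1.57-fold. The rows thus have one direction but lie on different sides of 1.5-fold, which is 0.58 on the log2 scale. Averaged, as in the analysis of all genes, Irf8 read 9.22 and 8.69, a difference of -0.53 where the local spread was 0.31. Taking the brighter row for each gene raised the count of factors at least 1.5-fold lower to 2, Ikzf1 and Irf8.

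Runx1, a Runt-domain factor needed for blood stem cell formation and active in myeloid enhancers, read 7.78 in the wild-type-labelled array and 7.28 in the knockout-labelled array. The difference was -0.51, or 1.42-fold lower, against a local spread of 0.31. Cebpa, the C/EBP factor that commits progenitors to the myeloid lineage, read 7.995 and 7.54, a difference of -0.46 or 1.37-fold lower. Both lay beyond 1 local spread and short of 1.5-fold. As low or lower were 4.33% of the genes analysed for Runx1, 5.80% for Cebpa and 3.75% for Irf8.

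The other 5 factors differed by less than the local spread of genes of like level. Cebpb, a C/EBP factor induced by inflammatory signals, read 8.98 in the wild-type-labelled array and 8.78 in the knockout-labelled array, a difference of -0.20. Spi1, the gene of PU.1, read 9.91 and 9.76, a difference of -0.15 where the local spread was 0.30. Pparg read 10.53 and 10.68, a difference of 0.15 where the local spread was 0.20. The pair of E-box repressors had differences of opposite sign. Bhlhe40 read 8.37 and 8.30, a difference of -0.07, and Bhlhe41 read 6.98 and 7.10, a difference of 0.12. Without replicates, a difference within the local spread does not show that the arrays are alike for that gene.

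**Figure D2:**
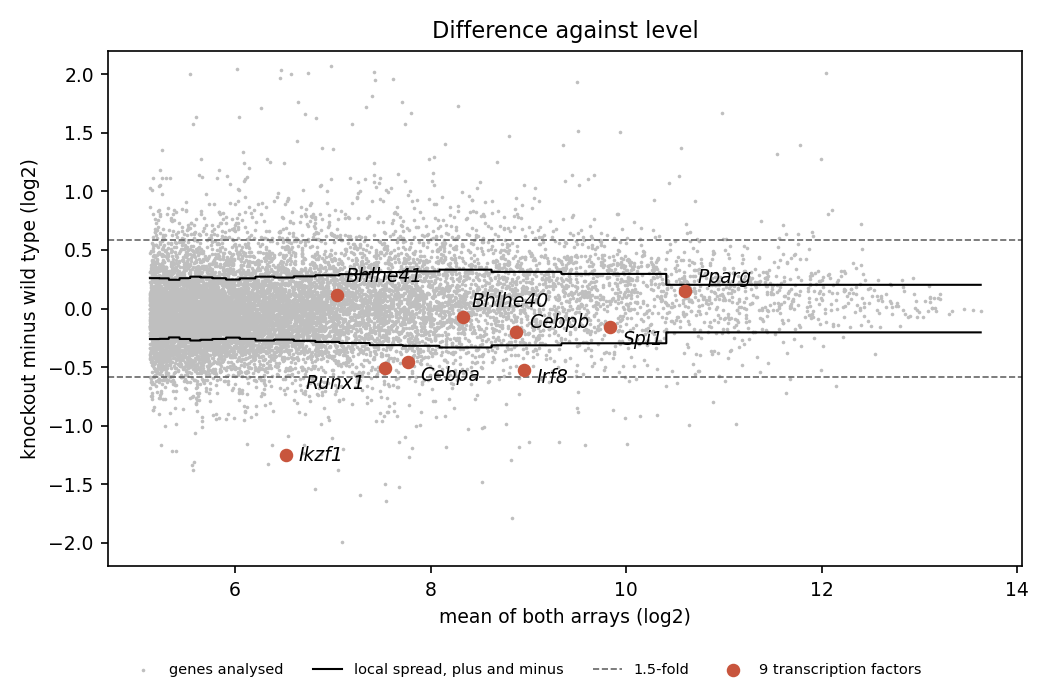
Difference (knockout minus wild type, log2) against the mean of both arrays (log2) for the 12516 genes analysed (grey) and the 9 factors (red), with the local spread as black lines and 1.5-fold as dashed lines. Ikzf1 lies at -1.25, past the dashed line, Irf8, Runx1 and Cebpa lie between the spread and that line, and 5 factors lie within the spread; 13 genes fall outside the axis limits of 2.2.

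Ikaros has 4 relatives in the IKZF family, and 2 of them, Ikzf2 and Ikzf3, known from T and B cells, were at background on both arrays. Ikzf4 read 5.39 in the wild-type-labelled array and 4.91, within background, in the knockout-labelled array, so it was at least 1.06-fold lower. Ikzf5 read 5.62 and 5.61. The family has no median of use here: it is -0.48, the value of Ikzf4, over the 3 genes that passed the filter, and -0.0088 over all 5.

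The NuRD complex and other corepressors that bind Ikaros were measured in all 17 genes listed. Of these, 11 read lower and 6 higher, with a median of -0.12, and none was 1.5-fold apart, where 7.11% of the genes analysed were. Mta1, a NuRD scaffold subunit, read 6.44 and 5.86, a difference of -0.58. Chd4, the remodelling ATPase of NuRD, differed by -0.35, and Ctbp2, a separate corepressor, by -0.28.

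Of 7 IRF family genes that passed the filter, Irf8 among them, 6 read lower and 1 higher, with a median of -0.33. Of the genes analysed, 49.6% read lower. Irf1, an interferon-induced activator, read 7.16 in the wild-type-labelled array and 6.38 in the knockout-labelled array, a difference of -0.78. It was the 1 gene of this list at least 1.5-fold lower, where 2.66% of the genes analysed were. Irf2bp2, a corepressor that binds IRF2, differed by -0.38, and Irf2, which can oppose IRF1, by -0.33. Irf3, which responds to nucleic acid sensing, read higher by 0.10. Irf4, the closest relative of Irf8, was at background on both arrays, at 5.26 and 4.83.

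Among RUNX genes, Runx3 and the corepressor gene Runx1t1 were at background on both arrays. Cbfb, which encodes the shared partner that stabilises RUNX proteins on DNA, read 6.55 and 6.40, a difference of -0.15. The corepressor gene Cbfa2t2 was above background in the knockout-labelled array alone and at least 1.01-fold higher there, and Cbfa2t3 differed by 0.06. Of the 4 genes that passed the filter, 2 read lower and 2 higher, with a median of -0.04.

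C/EBP genes and their partners read lower in 7 of 8 cases, with a median of -0.30, where 49.6% of the genes analysed read lower. Cebpa and Cebpb, of the 9 factors, are among these 8. Trib1, a pseudokinase that directs C/EBP-alpha to degradation, read 7.25 and 6.54, a difference of -0.71. It was the 1 gene of this list at least 1.5-fold lower, where 2.66% of the genes analysed were, and none was 1.5-fold higher. Cebpe, of granulocytes, was within background on both arrays, at 5.33 and 4.94. Atf4, a dimer partner and stress factor, differed by -0.35, and Ddit3, the stress-induced C/EBP-like gene, by 0.34 in the other direction. Cebpd and Cebpg differed by -0.25 and -0.04.

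ETS genes were divided evenly, with 7 of 14 lower, 7 higher, none 1.5-fold apart and a median of -0.05. Elk3 and Elf4 had differences of -0.43 and -0.36. Erg, an endothelial and stem cell ETS gene, passed the background in the knockout-labelled array alone and was at least 1.01-fold higher. Spib and Spic, the closest relatives of PU.1, were at background on both arrays.

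**Figure D3:**
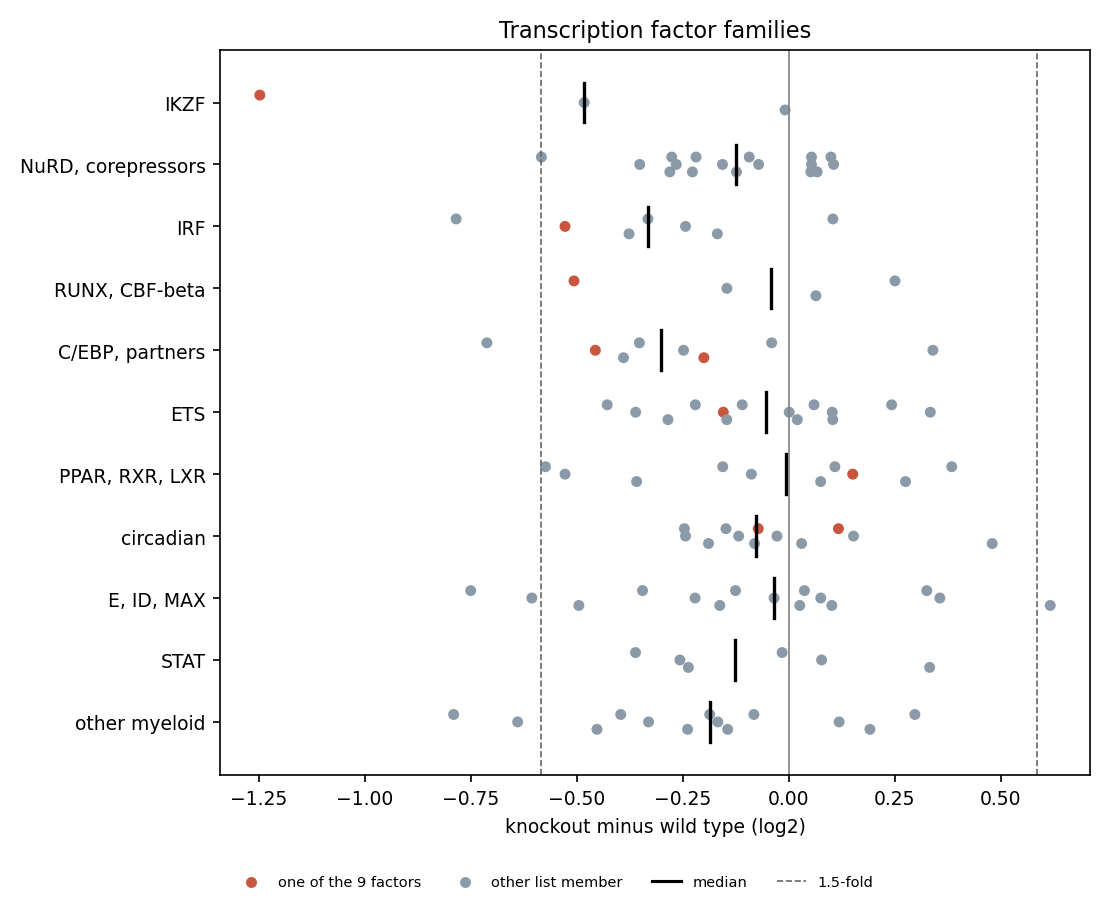
Difference (knockout minus wild type, log2, horizontal axis) of each gene that passed the filter in 11 lists of transcription factors and corepressors, with the 9 factors in red, other genes in grey, the list median as a black bar and 1.5-fold as dashed lines. Ikzf1 is the lowest point, at -1.25, and IRF and C/EBP genes lie mostly left of 0, with medians of -0.33 and -0.30, while the PPAR, RXR and LXR list is centred near 0.

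Pparg acts as a heterodimer with RXR. Rxra read 5.97 in the wild-type-labelled array and 6.24 in the knockout-labelled array, a difference of 0.28, and Rxrb differed by 0.11. The sterol receptor gene Nr1h3, itself a PPAR-gamma target, differed by 0.38. Med1, which links nuclear receptors to the Mediator complex, was within background in the knockout-labelled array, at least 1.23-fold lower. Ncoa1, a nuclear receptor coactivator, differed by -0.53. Of 10 genes of this list that passed the filter, 5 read lower and 5 higher, none was 1.5-fold apart and the median was -0.01.

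Known targets of PPAR-gamma were divided between the arrays, with 7 of 16 lower, 9 higher and a median of 0.09. Fabp5 and Fabp4, fatty acid carriers abundant in alveolar macrophages, differed by 0.72 and 0.62. Lpl, a lipoprotein lipase, read 11.99 and 11.27, a difference of -0.72, and Cidec, a lipid droplet protein, differed by -0.59. These 4 genes were the ones past 1.5-fold, 2 in each direction, where 2.66% of the genes analysed were lower and 4.45% higher. Fabp5, Fabp4 and Lpl also stand in the alveolar macrophage marker list, as do Car4 and Olr1, so the lists are not separate readings. The fatty acid transporter gene Cd36 differed by 0.22 and the lipid droplet coat gene Plin2 by -0.07.

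The GM-CSF receptor pathway acts upstream of Pparg and Spi1, and its list also holds inhibitors that the signal induces. All 9 of its genes that passed the filter read lower, where 49.6% of the genes analysed did. Stat5b, among the 9, was within background on both arrays. The median was -0.26 with Stat5b and -0.32 without it, when filtered at the receptor gene background. The receptor chains Csf2ra and Csf2rb differed by -0.24 and -0.46. The feedback inhibitors Socs1 and Socs3, which signalling induces, differed by -0.78 and -0.73. They were the 2 genes at least 1.5-fold lower, where 2.66% of the genes analysed were. Socs3 also stands in the immediate early list below. Stat5a, a mediator of the receptor, read 6.06 and 6.04. Csf2, the gene of GM-CSF itself, was at background on both arrays. The STAT list had 4 of 6 genes lower and a median of -0.13, with Stat3 at -0.36 and Stat4 at 0.33.

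Known PU.1 targets were also divided, with 10 of 21 lower, 11 higher and a median of 0.05. Msr1, a scavenger receptor gene, read 6.83 in the wild-type-labelled array and 8.59 in the knockout-labelled array, 3.39-fold higher. Csf3r, the receptor of the neutrophil growth factor G-CSF, differed by -0.64, and Fcgr2b, an inhibitory antibody receptor, by 0.56. Csf1r, the receptor of the macrophage growth factor M-CSF, differed by -0.35. Lyz2, the locus that drives lysm_cre, read 12.84 and 12.83.

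Bhlhe40 and Bhlhe41 are also outputs of the circadian clock, and clock genes showed no difference past 1.5-fold. Of 12 that passed the filter, 8 read lower and 4 higher, with a median of -0.08. Nr1d2, a clock repressor, was above background in the knockout-labelled array alone and at least 1.29-fold higher there. Cry1 and Hlf differed by -0.25 and -0.24, and the activators Arntl and Clock by -0.03 and -0.08. Maf, which the pair is known to repress in alveolar macrophages, read 5.60 and 5.90, a difference of 0.30.

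Other E-box and helix-loop-helix genes had 8 of 15 lower and a median of -0.03. Myc, a growth regulator, differed by -0.75, and Id3, a dominant negative partner of E proteins, by -0.61. Mxi1, which opposes MYC at E-boxes, differed by 0.62. Among other myeloid factors, 10 of 13 read lower with a median of -0.19, led by Klf2 at -0.79, Klf4 at -0.64 and Gfi1b at -0.45.

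Over all 92 genes of the 10 transcription factor lists that passed the filter, 60 read lower and 32 higher, where 49.6% of all genes analysed read lower. Without the 9 factors, 53 of 83 read lower and the median was -0.14. At least 1.5-fold lower were 7 of the 92 and 1 was 1.5-fold higher, where 2.66% and 4.45% of the genes analysed were. Ikzf1 was the 1 gene at least 2-fold apart, where 1.26% of the genes analysed were. Within these 10 lists, the genes nearest to Ikzf1 in difference over these 2 arrays were Klf2 (-0.79), Irf1 (-0.78) and Myc (-0.75). Klf2 differs from Ikzf1 by 0.457 and the others by more. Over 2 arrays no correlation of patterns can be formed.

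Marker genes of other cells and of handling also differed between the arrays, and their part in the differences of the 9 factors was not tested. Monocyte genes, in which Irf8, Runx1, Cebpa and Ikzf1 are also active, read lower in 6 of 7 cases, with a median of -0.73. Their summed log2 level over 9 measured genes was 69.8 in the wild-type-labelled array and 64.0 in the knockout-labelled array, with F13a1 and Vcan at background on both. Of the 7, 5 were at least 1.5-fold lower, where 2.66% of the genes analysed were. Fn1 (-1.54), Ms4a4c (-1.33) and Plac8 (-1.02) were at least 2-fold lower, where 0.336% were, the first 2 by more than Ikzf1. Ly6c2 differed by -0.69 and the monocyte chemokine receptor gene Ccr2 by -0.13. Nr4a1 (-0.73), which gives the median and is 1 of the 5, also stands in the immediate early list. Chil3, the 1 monocyte gene that read higher (0.13), is also among the alveolar macrophage markers. Immediate early and heat shock genes, which respond to tissue handling, read lower in 22 of 25 cases with a median of -0.59. Klf2, Klf4, Socs3 and Nr4a1 are among these 25. Of the 25, 13 were at least 1.5-fold lower, where 2.66% of the genes analysed were. Egr2 (-1.18), Hspa1a (-1.16) and Ier2 (-1.01) were at least 2-fold lower, where 0.336% were. Egr2, a transcription factor outside the 10 lists, is nearer to Ikzf1 in difference than Klf2 is. Their summed level was 218.8 and 205.6.

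Lymphocytes also use Ikzf1 and Runx1. T and NK cell markers read higher in 7 of 9 cases, with a median of 0.36 and a summed level of 71.3 and 74.7 over 11 measured genes. Of the 9, 2 were at least 1.5-fold higher, where 4.45% of the genes analysed were, and none was 1.5-fold lower. These were Cd3d (0.78) and Gzma (1.14), the latter at least 2-fold. Il7r, Klrb1c and Ncr1 were at background on both arrays. B cell markers had 4 of 7 lower and a median of -0.06, with a summed level of 43.9 and 42.9. Neutrophil markers read higher in 9 of 11 cases with a median of 0.45 (summed level 84.1 and 88.7). Of the 11, 5 were at least 1.5-fold higher, where 4.45% of the genes analysed were, and Camp (1.09) at least 2-fold, where 0.927% were. Of the same 11, 1, Csf3r, was 1.5-fold lower, where 2.66% were. Dendritic cell markers read higher in 5 of 6 cases with a median of 0.08, and Ccr7 (0.66) was the 1 gene past 1.5-fold. Markers of interstitial or monocyte-derived macrophages read higher in 10 of 12 cases with a median of 0.32. Of the 12, 5 were at least 1.5-fold higher, where 4.45% of the genes analysed were, and none was 1.5-fold lower. Ms4a7 (1.25) and Tmem176a (1.09) were at least 2-fold higher, and Ms4a7 differed by as much as Ikzf1 in the other direction. Airway and alveolar type 1 epithelium markers read higher in 6 of 9 cases with a median of 0.16, but spread widely. At least 2-fold higher were Bpifa1 (2.47) and Scgb3a1 (1.47), where 0.927% of the genes analysed were. Epcam (-1.99) was 2-fold lower and had the lowest difference of all genes analysed. Of the alveolar type 2 markers, Sftpc, Sftpa1 and Cxcl15 differed by 0.78, 0.84 and 0.92 and Napsa by -0.84, while Lamp3, Sftpb and Sftpd were at background on both arrays. Most endothelial, fibroblast and eosinophil, mast cell or basophil markers were at background in the wild-type-labelled array, where 2 of 7, 3 of 7 and 1 of 10 lay above it, against 3, 3 and 4 in the knockout-labelled array. Of the 4 endothelial genes that passed the filter, 3 read higher and 1 lower. Cav1 was above background in the knockout-labelled array alone, at least 2.17-fold higher, and Calcrl read 7.01 and 7.94, a difference of 0.93. None of the 9 factors is among the 100 measured genes next to Pikfyve.

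**Figure D4:**
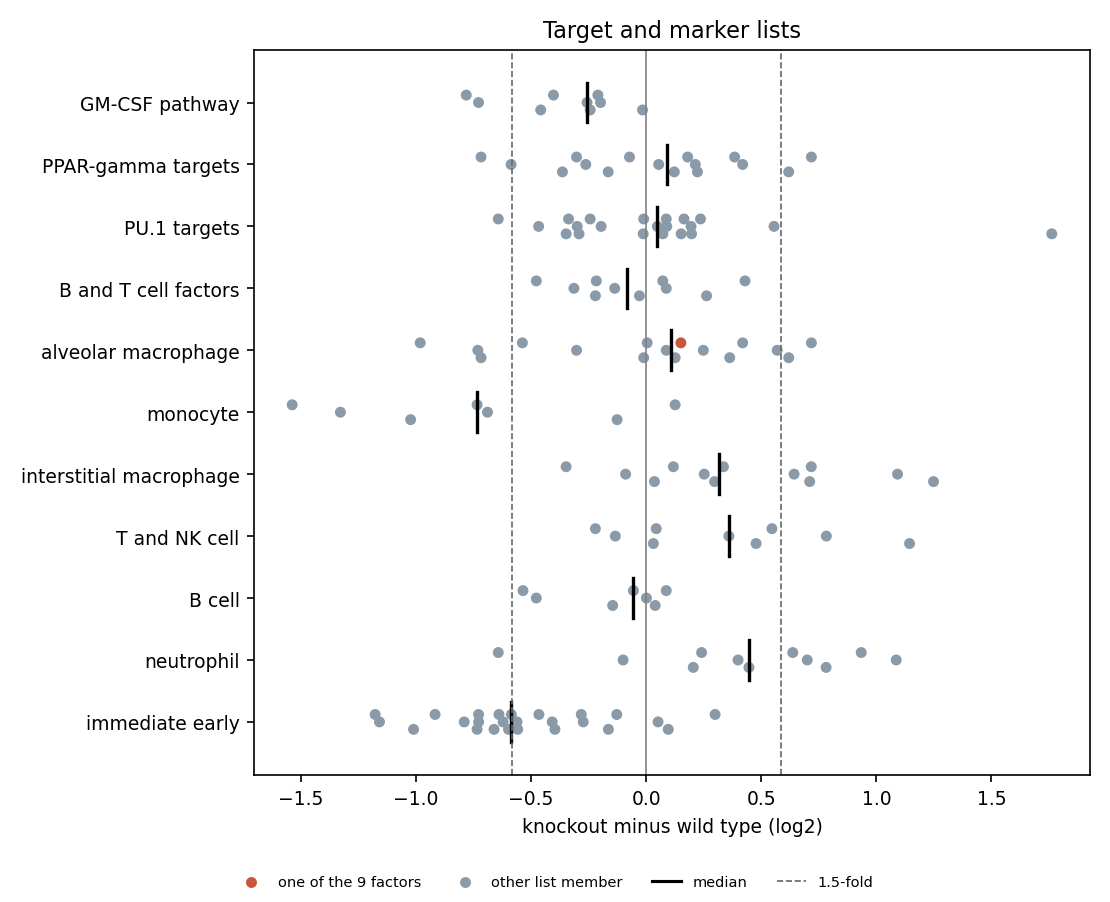
Difference (knockout minus wild type, log2, horizontal axis) of each gene that passed the filter in 11 lists of pathway, target and marker genes, with Pparg in red, other genes in grey, the list median as a black bar and 1.5-fold as dashed lines. Targets of PPAR-gamma and PU.1 spread to both sides of 0, GM-CSF pathway, monocyte and immediate early genes lie mostly on the lower side, and neutrophil and T and NK cell genes mostly on the higher side.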

How the data were processed

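RNA of sorted alveolar macrophages was amplified, biotinylated and put on Affymetrix arrays, per the labels' protocols. The deposited values are log2 signals that the authors made with RMA, per the submitters' processing notes; the RMA version, the build and the annotation are not given in the sources used. RMA normalises arrays to each other, and the deposited arrays have close but unequal distributions, with medians of 5.17 and 5.10. Base 2 is inferred from RMA and from the range, 0.77 to 13.86.

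Of the rows, 23521 have 1 symbol, 1814 have several and 16010 are not listed in the platform table; only the first were named. Rows of a gene were averaged, and the local spread was taken in 20 bins of level. A fold written "at least" is measured from background. A single array per genotype leaves no degrees of freedom, so nothing was tested, and the number of arrays limits the precision. The code was tested on simulated data.

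The factors and lists were chosen with earlier results of these data known. The rule named all 9 factors, Pikfyve, the 3 genes of each factor or target list with the largest absolute difference, family genes past 1.5-fold, known partners, and the 3 factor genes nearest to Ikzf1; other genes were named after their values were seen. Alternatives were median centring, quantile normalisation, loess (span 0.3), an offset of 32, the brightest row, other filters and folds, 3 local spreads, and means. Python 3.11.15, pandas 2.3.3, scipy 1.17.1 and statsmodels 0.14.6 were used.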

Additional observations from a re-analysis of the deposited data

How the results depend on the processing

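No paired analysis was possible because each genotype has 1 array. Under the 5 other scalings and row choices, each of the 9 factors kept the sign of its difference. Ikzf1 ran from -1.25 to -0.92 (the latter with the offset of 32), Irf8 from -0.65 to -0.46, Runx1 from -0.52 to -0.43, Cebpa from -0.48 to -0.39, Cebpb from -0.26 to -0.13, Spi1 from -0.25 to -0.09, Bhlhe40 from -0.11 to -0.01, Bhlhe41 from 0.09 to 0.18 and Pparg from 0.08 to 0.22. Median centring moved the median of all genes by 0.07. The count of factors past 1.5-fold was 1, Ikzf1, under every setting counted at that fold except the brightest row. There it was 2 because the brighter row of Irf8 stands alone. Counted at 2-fold or at 3 local spreads in place of 1.5-fold, it was also 1, Ikzf1. The offset, which by construction shrinks differences at low level, gave 3.31% of genes past 1.5-fold and 0.640% past 2-fold, and an IKZF median of -0.25. The IKZF median was -0.0088 with no filter, which adds genes at background, and -1.25 when filtered at the 75th percentile of rows, which leaves Ikzf1 alone; that filter gave a RUNX median of -0.33. The other 234 values moved by less than the limits set for them. Low signal limits Ikzf1, whose knockout value lies 0.59 above background.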

Other observations

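Factors that define other tissue macrophages were at background on both arrays. Gata6, of peritoneal macrophages, read 3.45 and 3.60, Sall1, of microglia, read 4.20 and 3.90, and Spic, of red pulp macrophages, read 5.06 and 4.94. Zbtb46, of conventional dendritic cells, read 5.05 and 5.01, and Gata1, Gata2 and Myb, of progenitors and other blood lineages, were at background as well. From the same list of other myeloid factors, Lmo2 (6.55 and 6.46), Lyl1 (6.46 and 6.32) and Gfi1b (6.09 and 5.64) lay above background on both arrays. Tal1 lay above it in the wild-type-labelled array alone and Gfi1 in the knockout-labelled array alone.

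Lineage factors of B and T cells showed no gene past 1.5-fold among the 10 that passed the filter, with 6 lower, 4 higher and a median of -0.08. Ebf1, of B cells, was above background in the wild-type-labelled array alone, a difference of at least 1.06-fold. Foxp3, of regulatory T cells, read 5.51 and 5.94, and Prdm1, a repressor also used by myeloid cells, differed by -0.31. Bcl11a, Eomes and Gata3 were at background on both arrays.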
